A study of Homo sapiens with 12 samples.

Results

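Genes whose symbols end in -AS1, -AS2 or -AS3 are named for a neighbour on the opposite DNA strand, the sense gene, and most of them give long noncoding RNAs. Such RNAs often start within or near the promoter of the sense gene, are mostly made at low levels, and are known in single cases to act on transcription or stability of the sense transcript, although for most members no role is known. The members were chosen by their name and by counts. They are the rows of the deposited count table whose Ensembl identifier maps to such a symbol. Their counts, summed over the 12 libraries, had to reach 200. No fold change was used, but the sum includes the treated libraries. A gene with few control counts could thus enter by being higher there. FOSL2-AS1 was left out by rule. This gave 295 of 63152 genes, of which 284 end in AS1, 10 in AS2 and 1, HOXC-AS3, in AS3.

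The study treated a human liver tumour line with acriflavine, a mixture of acridine dyes that bind DNA and keep the subunits of the oxygen-regulated factor HIF-1 from pairing; its stated interest was the epithelial-to-mesenchymal transition. Poly-A RNA was sequenced from strand-marked libraries after 24 h as control, at 2.5 µM acriflavine or at 5 µM acriflavine, with 4 libraries each that the labels call biological replicates. The labels call the controls untreated, while the treatment protocol gives dimethyl sulfoxide as vehicle. They name the cells HepG2, a hepatoblastoma line, and the sample descriptions name HepG2S1, a derivative that had been grown in rising doses of the kinase inhibitor sorafenib, so that all 3 groups share this selection. P-values measure the spread between these libraries, since nothing in the labels says how the cultures were kept apart. The control libraries held 11891849 to 14024568 counts, those at 2.5 µM 13095641 to 15115510, and those at 5 µM 10733567 to 15116842.

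The labelled liver origin was checked against 15 hepatocyte markers, among them ALB (albumin), which HepG2 cells are known to make. All 15 averaged under 1 CPM (read counts scaled to a common library size) in controls, and AHSG had no count in any library. Their summed level was 9.75 to 12.7 CPM at 5 µM, against 1.17 to 2.15 CPM in controls, and the 4 of them that were tested were higher. The 6 cholangiocyte markers, which include keratins, summed to 1486 to 1783 CPM at 5 µM and 3622 to 4074 CPM in controls, although 3 of the 5 tested were higher at 5 µM and 2 lower. Endothelial markers (7 genes, PECAM1 with no count) summed to 7.13 to 8.69 CPM at 5 µM and 0.169 to 0.537 CPM in controls, and blood markers (8 genes, CD3E with no count) to 5.07 to 6.89 CPM at 5 µM and 1.02 to 1.61 CPM in controls; the 2 and 3 tested were higher at 5 µM. The 8 fibroblast markers summed to 557 to 599 CPM at 5 µM and 619 to 769 CPM in controls, with 2 of the 4 tested higher at 5 µM and 2 lower. The part of these shifts in the results below was not tested.

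The members held a larger share of the counts at each higher dose. Control libraries gave them 0.199% to 0.212% of all counts. The share was 0.238% to 0.245% with 2.5 µM and 0.338% to 0.342% with 5 µM, so that the 3 groups did not overlap. The rule on summed counts, taken up below, bears on these shares. More genes were detected as well. Genes with at least 5 counts numbered 16894 ± 203 in controls, 17401 ± 114 at 2.5 µM and 18498 ± 400 at 5 µM (SD, n = 4 each). Of all 1737 genes with these suffixes, 368 to 406 had at least 5 counts in a control library, 443 to 464 with 2.5 µM, and 553 to 619 with 5 µM. The genes of all noncoding classes together held 0.823% to 0.876%, 0.900% to 0.932% and 1.17% of the counts in the same 3 groups. In these bulk samples, fewer cells of a type and less RNA per cell cannot be told apart.

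The strand setting of the counting is not given in the sources used here. It is thus not known whether reads of a member and of its sense gene were kept apart where their exons overlap. Among 251 genes of any kind that lay wholly inside the exons of an opposite-strand gene with at least 1000 counts, 29.5% had no count and the median was 2 counts. Their counts per exon base had a median of 0.00192 of those of the covering gene. Among 147 that lay inside exons of a same-strand gene, 81.0% had no count, and the medians of both measures were 0. The share of exon bases that lies over opposite-strand exons in GENCODE 29 is given below for some of the named members, and 50 members had none. It counts exons of any opposite-strand gene, not of the sense gene alone. The share is not given for most pairs that rose or fell together, such as those of DYNLRB2 and C1RL. The part of shared reads in those pairs was not tested.

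Promoter sequences of 242 members were found in RefSeq (GRCh38.p14), as 300 bases of which 250 lie before the start and 50 after it. The 5 shown were picked after the values were seen: 4 belong to members with large increases, whose starts lie at different distances from the sense gene, and 1 to the member with the largest decrease. They are printed in the direction of the antisense transcript, with capitals for ACGTG or its reverse complement CACGT. In CACGTG these overlap. ACGTG is a form of the core letters of the sequence that HIF-1 binds. The other form, GCGTG, was neither marked nor counted, so a window without capitals can hold it, as that of ELFN1-AS1 does. The first window (chr14:61695774-61696073, minus strand) belongs to HIF1A-AS1, whose start lies 310 bases inside HIF1A, the gene of the oxygen-regulated HIF subunit. RBM15-AS1 (chr1:110339122-110339421, minus strand) starts 206 bases before RBM15, so that the windows of the pair overlap. YWHAH-AS1 (chr22:31945313-31945612, minus strand) starts 827 bases and CALML3-AS1 (chr10:5526197-5526496, minus strand) 1285 bases inside the sense gene. ELFN1-AS1 (chr7:1742261-1742560, minus strand) starts 76246 bases inside ELFN1.
HIF1A-AS1: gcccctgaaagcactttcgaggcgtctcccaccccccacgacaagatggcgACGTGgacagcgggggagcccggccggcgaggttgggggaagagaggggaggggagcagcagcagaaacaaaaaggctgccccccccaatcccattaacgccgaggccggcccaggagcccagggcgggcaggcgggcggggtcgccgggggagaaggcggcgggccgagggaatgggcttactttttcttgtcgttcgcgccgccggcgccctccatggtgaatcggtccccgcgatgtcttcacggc
RBM15-AS1: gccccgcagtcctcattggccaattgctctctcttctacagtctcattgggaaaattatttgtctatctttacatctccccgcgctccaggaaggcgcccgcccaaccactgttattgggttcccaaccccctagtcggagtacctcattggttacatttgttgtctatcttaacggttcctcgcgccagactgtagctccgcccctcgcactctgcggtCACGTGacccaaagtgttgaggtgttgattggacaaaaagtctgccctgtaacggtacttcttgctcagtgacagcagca
YWHAH-AS1: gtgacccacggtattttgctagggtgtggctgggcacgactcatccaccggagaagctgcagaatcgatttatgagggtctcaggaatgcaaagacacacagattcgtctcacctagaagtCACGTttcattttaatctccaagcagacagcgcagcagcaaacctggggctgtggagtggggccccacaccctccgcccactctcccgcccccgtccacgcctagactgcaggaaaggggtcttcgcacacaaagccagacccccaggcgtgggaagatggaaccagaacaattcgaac
CALML3-AS1: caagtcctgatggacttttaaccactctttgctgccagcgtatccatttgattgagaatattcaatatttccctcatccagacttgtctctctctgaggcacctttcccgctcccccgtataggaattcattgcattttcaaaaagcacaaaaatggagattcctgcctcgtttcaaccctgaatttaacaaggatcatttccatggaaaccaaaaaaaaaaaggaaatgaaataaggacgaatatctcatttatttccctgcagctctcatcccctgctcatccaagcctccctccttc
ELFN1-AS1: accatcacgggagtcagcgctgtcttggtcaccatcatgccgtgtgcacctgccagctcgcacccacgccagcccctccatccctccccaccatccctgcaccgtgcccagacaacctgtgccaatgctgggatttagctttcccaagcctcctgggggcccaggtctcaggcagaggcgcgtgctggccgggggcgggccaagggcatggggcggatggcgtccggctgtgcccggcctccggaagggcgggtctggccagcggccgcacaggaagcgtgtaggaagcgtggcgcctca

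The window of HIF1A-AS1 held 30 CG pairs and that of CALML3-AS1 5. The median was 25 over the 163 matched members that were higher at 5 µM, 21 over the 37 that were lower, 26.5 over the 42 that did not pass the test and 14 over the promoters of 27305 genes. ACGTG on either strand was found in 28.2% of the windows of the members higher at 5 µM, in 48.6% of those lower, in 16.7% of those not past the test, and in 21.6% of all promoters. A match of letters is a description and was not tested as a binding site.

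At 5 µM against control, 198 of the 295 members were higher, 43 were lower and 54 did not pass the test (edgeR quasi-likelihood test, Benjamini-Hochberg adjusted p under 0.05 over 16839 genes). This is 81.7% called, against 78.2% of all genes tested, so the share called was near the background. By direction, 67.1% of members were higher and 14.6% lower, against 38.7% and 39.4% of all genes tested; this difference was not tested. The median log2 fold change was 0.90 over the members, with quartiles of 0.06 and 1.97, and -0.01 over all genes. At least 2-fold higher and called were 140 of the 295 members, against 15.6% of all genes tested, and at least 2-fold lower 15, against 10.8%. The values of the 4 and 4 libraries did not overlap for 225 members, or 76.3%, against 70.8% of all genes tested.

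The rule on summed counts bears on these counts. A gene with very few control counts could reach 200 only by being higher in a treated group, and 108 of the members had under 100 counts over the 4 control libraries. Among the 187 members with at least 100 control counts, 102 were higher and 43 lower, with a median log2 fold change of 0.37. All 43 members called lower were thus in this group. The split followed the control level. Of 169 members with at least 100 and under 1000 control counts, 96 were higher and 35 lower, where all genes tested in that range had 36.1% higher and 37.5% lower. Of the 18 members with 1000 or more control counts, 6 were higher and 8 lower, where all genes tested in that range had 32.2% higher and 50.8% lower. Nearest to the minimum stood LIPT2-AS1 and MATN1-AS1 with 199 counts each outside it, and CYYR1-AS1 and ITGB2-AS1 with 200 counts each inside it. All 295 members passed the filter on low counts. Of the 1442 genes with these suffixes below the minimum, 652 had no count, and 149 were tested, with 109 higher, 15 lower and a median of 1.89.

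Other RNAs of similar class moved in the same direction. Genes named with the suffixes AS, AS4 and above, DT, IT or OT had 144 higher and 30 lower of 211 tested, with a median log2 fold change of 1.07. All noncoding classes of GENCODE 29 together, members included, had 917 higher and 244 lower of 1429, with a median of 1.11. The 12185 protein-coding genes tested had 4899 higher and 5027 lower, with a median of -0.02. Most noncoding genes called were thus higher, as most members called were, and no test of a difference between them was run. The filter on low counts bears on these lists and on the 149 genes below the minimum. A gene with few control counts could pass it by being higher in a treated group. Of all 446 genes tested with at most 9 control counts, 445 were higher. These lists were not split by control counts. By GENCODE class 230 members were antisense, 30 processed transcripts, 26 intergenic, 2 from bidirectional promoters, 5 pseudogenes and 2 protein-coding.

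**Figure D1:**
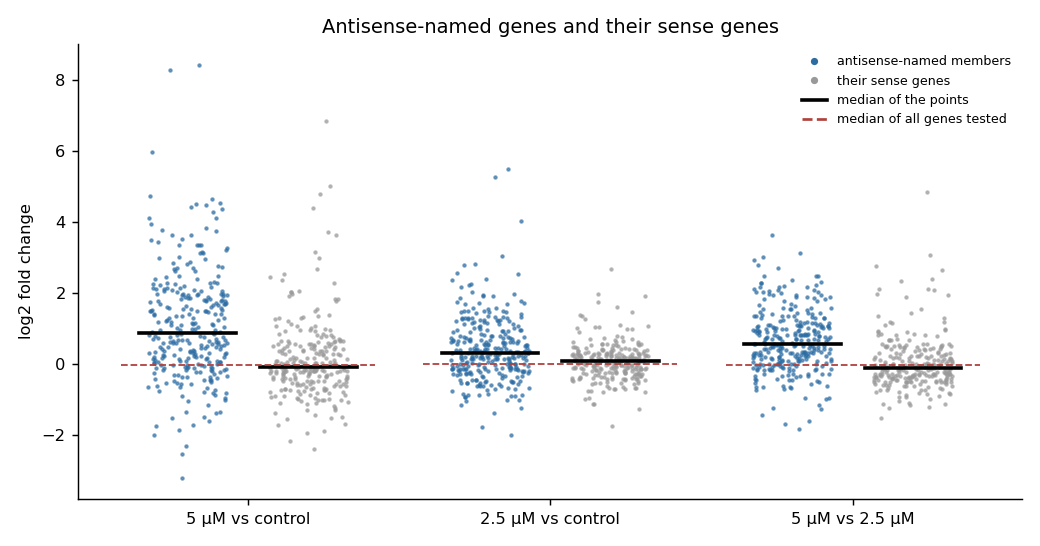
Log2 fold changes of the 295 antisense-named members (blue, left of each pair) and of their tested sense genes (grey, right) in the 3 comparisons. Each point is a gene, black bars are medians and dashed red lines the median of all genes tested; at 5 µM against control the members' median lay at 0.90 and that of the sense genes at -0.07.

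The sense genes did not share the direction. A sense gene was found for 294 members (291 genes, 252 of them tested). At 5 µM against control 99 sense genes were higher, 108 lower and 45 did not pass the test, with a median log2 fold change of -0.07. This is 39.3% higher and 42.9% lower, against 38.7% and 39.4% of all genes tested, so the shares were near the background. Among the 254 pairs with both genes tested, 72 had both higher, 74 had the member higher and the sense gene lower, 11 had the member lower and the sense gene higher, and 13 had both lower. Across these pairs, which come from the same libraries and share depth, the log2 fold changes of member and sense gene gave a Pearson r of 0.09 and a Spearman rho of 0.04. Pearson's r was 0.04 over the 111 head-to-head pairs and 0.19 over the 143 others, with a Spearman rho of 0.02 and 0.13. At 2.5 µM against the same controls the split was less even: 50 pairs had both genes higher and 33 the member higher and the sense gene lower. Of the sense genes tested, 37.7% were higher and 27.0% lower, against 30.7% and 28.5% of all genes tested. Here r was -0.03 over the head-to-head pairs and 0.24 over the others, and rho -0.05 and 0.15. At 5 against 2.5 µM these counts of pairs were 55 and 75, with r of 0.06 and 0.07 and rho of 0.03 and 0.04. There 32.5% of the sense genes tested were higher and 44.8% lower, against 33.6% and 34.8% of all genes tested. None of these differences was tested.

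**Figure D2:**
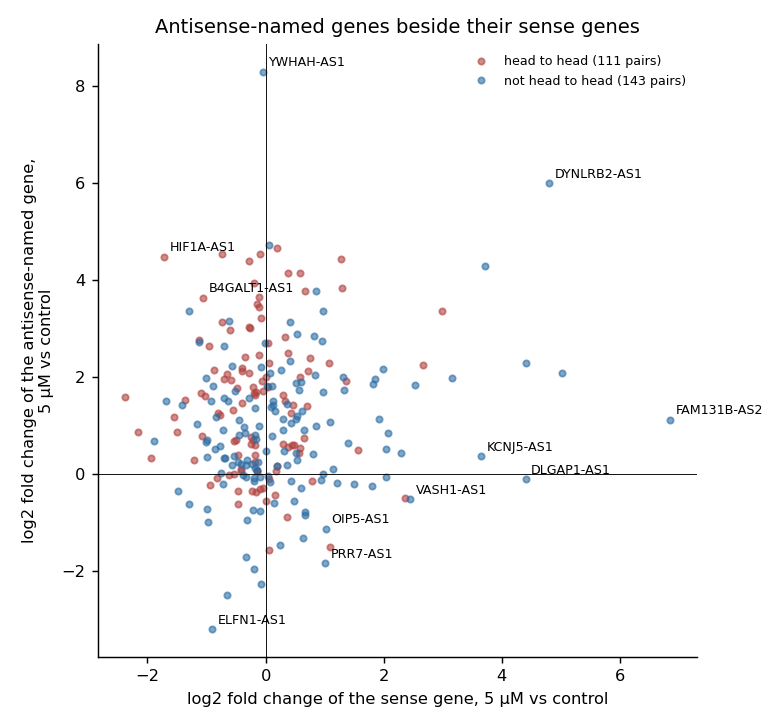
Log2 fold change of each antisense-named gene (vertical axis) against that of its sense gene (horizontal axis) at 5 µM against control, for 254 pairs, with head-to-head pairs in red and all others in blue. Points fill the upper left and the upper right quadrant in near equal number (74 and 72 pairs with both genes called), and HIF1A-AS1 and B4GALT1-AS1 lie at the upper left.

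Members were also sorted by whether the starts of a pair lay head to head, on opposite strands within 1000 bases. Of 113 such members 86 (76.1%) were higher and 11 (9.73%) lower, with a median log2 fold change of 1.52. Of the other 182 members 112 (61.5%) were higher and 32 (17.6%) lower, with a median of 0.64. Of all genes tested, 38.7% were higher and 39.4% lower. Gene bodies overlapped in 101 of the head-to-head pairs and in 176 of the others. The arrangements were not compared at like control counts, and the difference between them was not tested. Among the 50 members without an exon base over an opposite-strand exon, 32 were higher and 6 lower, with a median of 0.78.

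The largest increases came from members at or near 0 in controls. CALML3-AS1 (ENSG00000205488), named for a calmodulin-like gene, had 0, 0, 0 and 0.0846 CPM in controls, 1.82, 1.34, 0.848 and 1.28 CPM at 2.5 µM and 9.0, 9.96, 10.7 and 11.1 CPM at 5 µM. The controls held 1 count in 1 library, and every library at 5 µM lay above every other one. The ratio of scaled counts at 5 µM against control was 508, with an exact 95% interval for counting error of 90.8 to 20114 (adjusted p = 8.12e-21, edgeR). CALML3 itself had 2 counts over the controls and 1 over the libraries at 5 µM and was not tested.

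YWHAH-AS1 (ENSG00000128254) belongs to the gene of the signalling adaptor 14-3-3 eta. It had 0, 0, 0.0895 and 0 CPM in controls, 0.984, 0.703, 1.39 and 1.48 CPM at 2.5 µM and 9.09, 7.99, 10.2 and 9.62 CPM at 5 µM. Again the controls held 1 count, and the ratio at 5 µM was 459 (82.1 to 18180.4, counting error only; adjusted p = 4.17e-20, edgeR). YWHAH had 92, 92.8, 100.1 and 102 CPM at 5 µM, against 95.4, 99.5, 104 and 102 CPM in controls, and these values overlapped (log2 fold change -0.05 ± 0.05, adjusted p = 0.387, edgeR). Few of the exon bases of YWHAH-AS1 lie over opposite-strand exons.

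DYNLRB2-AS1 rose together with DYNLRB2, which encodes a light chain of the motor dynein. The antisense gene had 0, 0.0733, 0.0895 and 0.0846 CPM in controls, 0.908, 1.13, 1.0 and 1.48 CPM at 2.5 µM and 3.65, 4.81, 4.54 and 4.62 CPM at 5 µM, or 233 counts at 5 µM and 3 in controls (ratio 73.1, 24.7 to 357; adjusted p = 2.02e-16, edgeR). The sense gene had 3.47, 3.26, 3.3 and 4.37 CPM at 5 µM, against 0.0781, 0.147, 0.179 and 0.0846 CPM in controls (log2 fold change 4.8 ± 0.34, adjusted p = 9e-15, edgeR). In neither gene did the groups overlap.

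HM13-AS1, STXBP5-AS1 and RBM15-AS1 complete the 6 largest increases, and their sense genes moved little. HM13-AS1 had 3.47, 3.61, 3.08 and 3.62 CPM at 5 µM, against 0.0781, 0.0733, 0.0895 and 0.254 CPM in controls (log2 fold change 4.72 ± 0.37, adjusted p = 1.94e-13, edgeR); 49.5% of its exon bases lie over opposite-strand exons. HM13, a protease of signal peptides, had 199 ± 8.82 CPM at 5 µM and 192 ± 15.2 CPM in controls (SD, n = 4 each; log2 fold change 0.05 ± 0.05, adjusted p = 0.374, edgeR). The antisense groups stood apart and the sense groups overlapped.

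STXBP5-AS1 had 7.84, 5.32, 5.93 and 6.37 CPM at 5 µM, against 0.156, 0.293, 0.179 and 0.338 CPM in controls (log2 fold change 4.66 ± 0.28, adjusted p = 1.92e-16, edgeR), while STXBP5, which encodes a brake on vesicle fusion, had 41.4 ± 1.55 CPM at 5 µM and 36 ± 3.92 CPM in controls (log2 fold change 0.20 ± 0.07, adjusted p = 0.0126, edgeR). Without the third control library the sense gene no longer passed (adjusted p = 0.158, edgeR). RBM15-AS1 had 3.56, 3.18, 4.25 and 4.56 CPM at 5 µM, against 0.0781, 0.147, 0.269 and 0.169 CPM in controls (log2 fold change 4.53 ± 0.32, adjusted p = 1.42e-14, edgeR). RBM15, part of the complex that writes N6-methyladenosine on RNA, had 29.5 ± 3.5 CPM at 5 µM and 31.5 ± 3.98 CPM in controls and did not pass the test (adjusted p = 0.311, edgeR). Although the windows of RBM15-AS1 and RBM15 share bases, the antisense values stood apart and the sense values overlapped.

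**Figure D3:**
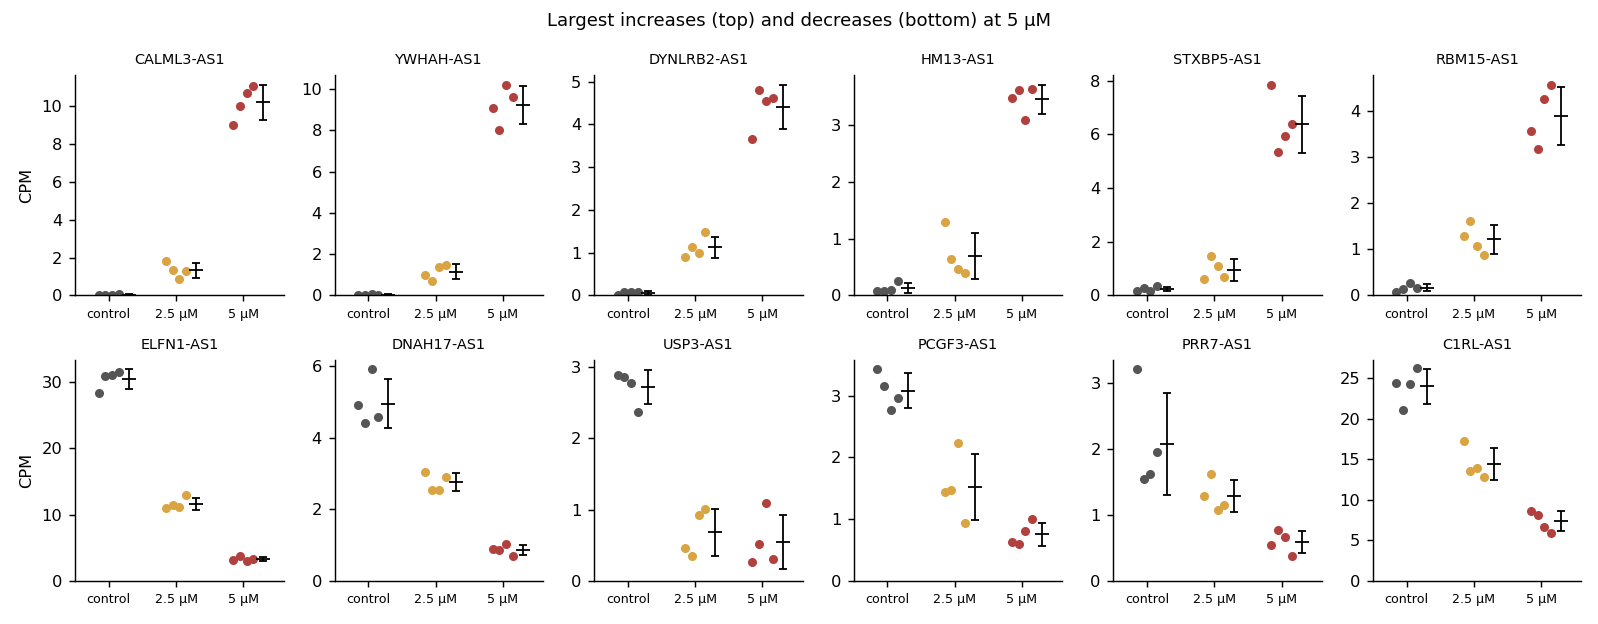
CPM in each library (points) with mean and SD (bars) for the 6 members with the largest increases (top row) and the 6 with the largest decreases (bottom row), with control, 2.5 µM and 5 µM from left to right and a linear axis from 0 in each panel. The increases start at or near 0 in controls, and ELFN1-AS1 averaged 3.31 CPM at 5 µM and 30.4 CPM in controls.

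Several members rose while the sense gene fell. HIF1A-AS1 (ENSG00000258777) had 0.781, 0.22, 0.179 and 0.338 CPM in controls, 3.41, 3.45, 2.85 and 3.16 CPM at 2.5 µM and 9.98, 7.73, 8.86 and 8.44 CPM at 5 µM, so that the 3 groups stood apart in order of dose (log2 fold change 4.47 ± 0.23, adjusted p = 2.09e-18 at 5 µM, edgeR). Without control replicate 1 the log2 fold change was 5.09. HIF1A had 412, 374, 338 and 305 CPM in controls, 299, 337, 312 and 279 CPM at 2.5 µM and 117, 119, 91.2 and 109 CPM at 5 µM. At 5 µM every library lay below every control (log2 fold change -1.72 ± 0.11, adjusted p = 8.04e-09, edgeR), and at 2.5 µM the groups overlapped (log2 fold change -0.22 ± 0.10, adjusted p = 0.0779, edgeR). Of the exon bases of HIF1A-AS1, 17.9% lie over opposite-strand exons. The log2 ratio of antisense to sense CPM was -3.61 ± 0.24 at 5 µM and -9.51 ± 0.58 in controls (SD, n = 4 each).

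B4GALT1-AS1 had 0.625, 0.733, 0.448 and 0.508 CPM in controls, 3.48, 3.66, 4.24 and 2.89 CPM at 2.5 µM and 6.77, 7.04, 7.77 and 7.75 CPM at 5 µM (log2 fold change 3.63 ± 0.20, adjusted p = 1.61e-17 at 5 µM, edgeR). B4GALT1, a galactosyltransferase of the Golgi, had 570.3, 529, 589 and 522 CPM in controls, 409, 401, 397 and 408 CPM at 2.5 µM and 274, 269, 262 and 259 CPM at 5 µM (log2 fold change -1.05 ± 0.04, adjusted p = 7.93e-21 at 5 µM, edgeR). In both genes the 3 groups stood apart, in opposite order. BHLHE40-AS1 had 3.65, 3.09, 3.22 and 3.81 CPM at 5 µM, against 0.156, 0.0733, 0.358 and 0 CPM in controls (log2 fold change 4.52 ± 0.35, adjusted p = 1.01e-13, edgeR), and a log2 fold change of 5.28 without control replicate 3. BHLHE40, a transcriptional repressor that hypoxia and the circadian clock are known to induce, had 36.7, 35.7, 31.9 and 34.9 CPM at 5 µM, against 65.2, 54.5, 65.5 and 48.1 CPM in controls (log2 fold change -0.75 ± 0.08, adjusted p = 2.24e-10, edgeR), and neither pair of groups overlapped.

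TMPO-AS1 had 6.41, 8.06, 8.68 and 11.4 CPM in controls, 15.3, 16.7, 14.9 and 15.7 CPM at 2.5 µM and 33.6, 38.5, 43.2 and 39.3 CPM at 5 µM (log2 fold change 2.17 ± 0.11, adjusted p = 8.42e-18 at 5 µM, edgeR). Its sense gene encodes thymopoietin, or LAP2, which binds the nuclear lamina, and had 233, 233, 227 and 227 CPM at 5 µM, against 309, 312, 284 and 309.5 CPM in controls (log2 fold change -0.40 ± 0.05, adjusted p = 1.05e-09, edgeR). KRT10-AS1, which GENCODE 29 classes as protein-coding, had 67.9 ± 3.41 CPM at 5 µM and 42.1 ± 3.38 CPM in controls (log2 fold change 0.70 ± 0.06, adjusted p = 4.07e-12, edgeR), and the keratin gene KRT10 had 55 ± 2.26 CPM at 5 µM and 109 ± 5.16 CPM in controls (log2 fold change -0.99 ± 0.05, adjusted p = 1.55e-17, edgeR; SD, n = 4 each). In both pairs the member was higher in every library at 5 µM and the sense gene lower in every library at 5 µM than in any control.

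**Figure D4:**
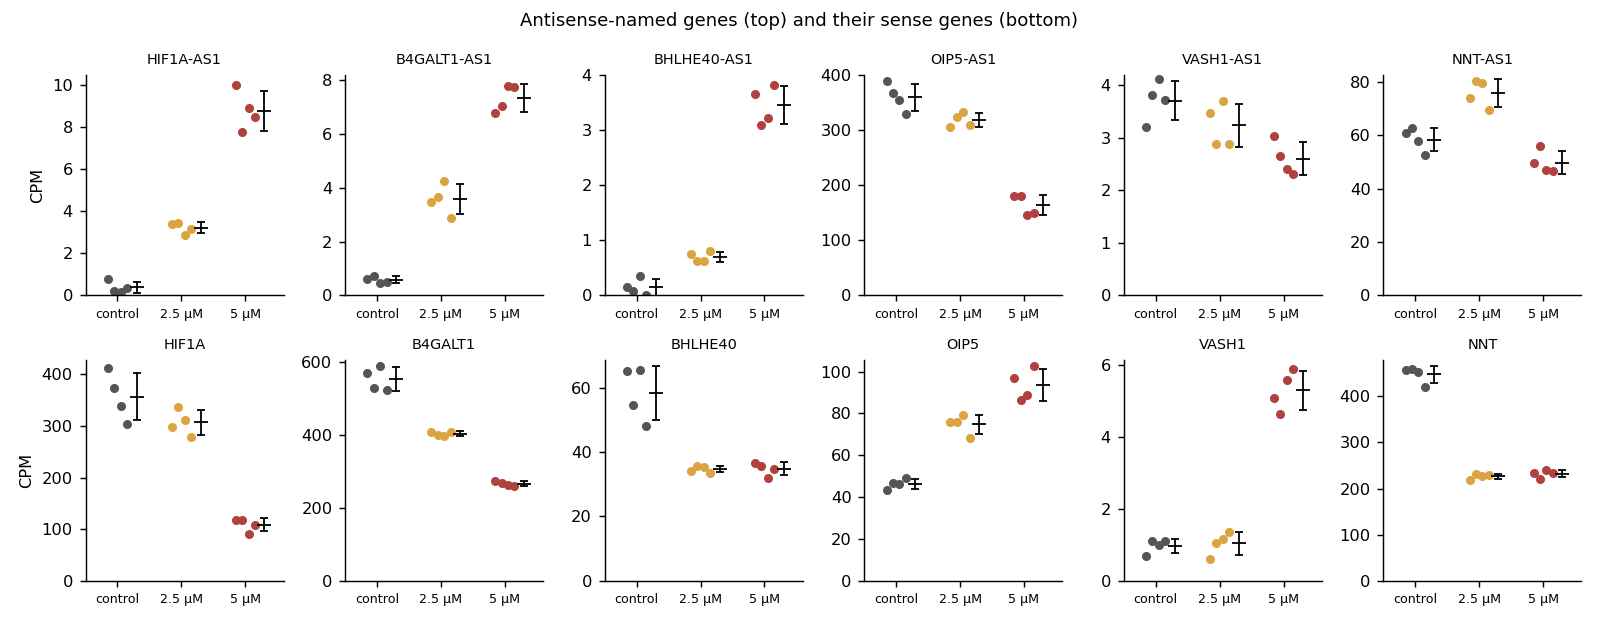
CPM in each library (points) with mean and SD (bars) for 6 antisense-named genes (top row) and the sense gene of each (below it), with control, 2.5 µM and 5 µM from left to right and linear axes from 0. HIF1A-AS1, B4GALT1-AS1 and BHLHE40-AS1 were higher at 5 µM where their sense genes were lower, while OIP5-AS1 and VASH1-AS1 were lower where OIP5 and VASH1 were higher; NNT-AS1 was highest at 2.5 µM.

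The largest decrease was that of ELFN1-AS1 (ENSG00000236081), an intergenic transcript by class and without an exon base over opposite-strand exons. It had 28.3, 30.9, 31.1 and 31.5 CPM in controls, 11.1, 11.4, 11.2 and 13 CPM at 2.5 µM and 3.21, 3.78, 3.0 and 3.25 CPM at 5 µM, and the 3 groups stood apart (log2 fold change -3.2 ± 0.10, adjusted p = 9.38e-24 at 5 µM, edgeR). ELFN1, a synaptic adhesion gene, had 1.34, 1.46, 1.25 and 1.87 CPM at 5 µM, against 2.34, 3.15, 2.06 and 3.64 CPM in controls and was lower as well (log2 fold change -0.90 ± 0.22, adjusted p = 0.000523, edgeR). DNAH17-AS1 had 4.92, 4.4, 5.91 and 4.57 CPM in controls, 3.03, 2.53, 2.54 and 2.89 CPM at 2.5 µM and 0.891, 0.859, 1.03 and 0.687 CPM at 5 µM (log2 fold change -2.51 ± 0.20, adjusted p = 2.16e-13 at 5 µM, edgeR), and DNAH17, which encodes a dynein heavy chain of sperm tails, had 1.87, 2.15, 2.12 and 1.75 CPM at 5 µM, against 3.12, 2.2, 2.95 and 4.23 CPM in controls (log2 fold change -0.66 ± 0.21, adjusted p = 0.00453, edgeR). Each of these pairs fell together, the antisense gene by more on the log2 scale: the ratio of antisense to sense CPM differed by -2.31 for ELFN1-AS1 and by -1.73 for DNAH17-AS1.

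USP3-AS1 had 0.267, 0.515, 1.1 and 0.312 CPM at 5 µM, against 2.89, 2.86, 2.77 and 2.37 CPM in controls (log2 fold change -2.29 ± 0.30, adjusted p = 3.35e-08, edgeR), and a log2 fold change of -2.89 without 5 µM replicate 3. USP3, a deubiquitinase of histone H2A, had 63.7 ± 1.63 CPM at 5 µM and 67 ± 0.965 CPM in controls (log2 fold change -0.07 ± 0.05, adjusted p = 0.191, edgeR). PCGF3-AS1 had 0.624, 0.601, 0.806 and 1.0 CPM at 5 µM, against 3.44, 3.15, 2.77 and 2.96 CPM in controls (log2 fold change -1.98 ± 0.25, adjusted p = 8.83e-09, edgeR), with 30.2% of its exon bases over opposite-strand exons. PCGF3, a polycomb subunit, had 17.9 ± 1.22 CPM at 5 µM and 20.5 ± 2.31 CPM in controls (log2 fold change -0.20 ± 0.09, adjusted p = 0.0412, edgeR), a call that was lost with DESeq2 (adjusted p = 0.11), with other scalings, and without control replicate 1 or 3 or 5 µM replicate 1 or 4 (adjusted p = 0.055 to 0.152). Both antisense genes fell out of the range of their controls while the sense genes' fold changes stayed near 0.

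PRR7-AS1 and C1RL-AS1 were the remaining members of the 6 largest decreases. PRR7-AS1 had 0.535, 0.773, 0.659 and 0.375 CPM at 5 µM, against 3.2, 1.54, 1.61 and 1.95 CPM in controls (log2 fold change -1.85 ± 0.30, adjusted p = 1.52e-06, edgeR), and PRR7, a membrane adaptor, had 10.9, 10.6, 12.5 and 11.2 CPM at 5 µM, against 5.31, 3.96, 6.71 and 6.77 CPM in controls (log2 fold change 1.01 ± 0.13, adjusted p = 2.12e-08, edgeR), so that this pair moved apart. C1RL-AS1 had 8.64, 8.07, 6.67 and 5.94 CPM at 5 µM, against 24.5, 21, 24.3 and 26.2 CPM in controls (log2 fold change -1.73 ± 0.11, adjusted p = 1.17e-15, edgeR). C1RL, a protease akin to complement C1r, had 28.5 ± 1.14 CPM at 5 µM and 35.9 ± 3.12 CPM in controls (log2 fold change -0.34 ± 0.07, adjusted p = 7.18e-05, edgeR). The C1RL pair fell together.

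The 5 members with the highest mean CPM over all libraries were OIP5-AS1, IGFL2-AS1, FGD5-AS1, NNT-AS1 and KRT10-AS1; CPM is not divided by length, so this is not an order of molecules. OIP5-AS1, the human counterpart of the zebrafish noncoding RNA cyrano, had 388, 366, 354 and 329.6 CPM in controls, 306, 323, 333 and 309 CPM at 2.5 µM and 179.5, 179.7, 146 and 149 CPM at 5 µM. It was lower at 5 µM in every library (log2 fold change -1.14 ± 0.06, adjusted p = 1.88e-14, edgeR). OIP5, which helps load the centromeric histone, had 43.6, 46.5, 46.1 and 48.9 CPM in controls, 76.1, 75.7, 79.1 and 68 CPM at 2.5 µM and 96.7, 86.3, 88.7 and 103 CPM at 5 µM, and its groups stood apart in the other direction (log2 fold change 1.02 ± 0.06, adjusted p = 2.13e-16 at 5 µM, edgeR). The log2 ratio of OIP5-AS1 to OIP5 was 0.80 ± 0.22 at 5 µM and 2.95 ± 0.16 in controls. At 2.5 µM OIP5-AS1 overlapped with controls (log2 fold change -0.18 ± 0.06, adjusted p = 0.014, edgeR), and the call was lost without the first control library (adjusted p = 0.0545) and on library size alone (adjusted p = 0.0944).

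IGFL2-AS1, whose sense gene belongs to a family of insulin-like growth factor relatives, had 45.9, 51.8, 47.6 and 45.8 CPM in controls, 129, 131, 143 and 134 CPM at 2.5 µM and 188, 185, 186 and 184 CPM at 5 µM. Its groups stood apart in order of dose (log2 fold change 1.96 ± 0.05, adjusted p = 3.99e-26 at 5 µM, edgeR), and IGFL2, with 24 counts at 5 µM and 11 in controls, was not tested. FGD5-AS1 had 141, 145, 142 and 131 CPM at 5 µM, against 128, 121, 127 and 111 CPM in controls (log2 fold change 0.20 ± 0.05, adjusted p = 0.00089, edgeR), and FGD5, which activates the GTPase CDC42, had no count at 5 µM and 2 in controls. NNT-AS1 had 60.8, 62.7, 57.8 and 52.5 CPM in controls, 74, 80.3, 79.8 and 69.4 CPM at 2.5 µM and 49.6, 56.1, 46.9 and 46.6 CPM at 5 µM. It was higher at 2.5 µM (log2 fold change 0.37 ± 0.06, adjusted p = 8.29e-06, edgeR) and lower at 5 µM with overlapping values (log2 fold change -0.24 ± 0.07, adjusted p = 0.00202, edgeR); the second call was lost on library size alone (adjusted p = 0.185). By contrast, NNT, the mitochondrial transhydrogenase that makes NADPH, was lower at both doses, with 448 ± 18.8 CPM in controls, 227 ± 5.38 CPM at 2.5 µM and 232 ± 8.03 CPM at 5 µM (SD, n = 4 each). The sense gene's log2 fold change was -0.95 at 5 µM and -0.98 at 2.5 µM.

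In another set the sense gene rose by more than the member, or rose while the member fell or did not pass the test. FAM131B had 15.8, 18.5, 23.8 and 20.3 CPM at 5 µM, against 0.312, 0.22, 0.0895 and 0 CPM in controls (log2 fold change 6.85 ± 0.25, adjusted p = 2.29e-22, edgeR), while FAM131B-AS2 had 27.4, 25.9, 25.4 and 23.4 CPM at 5 µM, against 11.9, 12, 11.7 and 11.3 CPM in controls (log2 fold change 1.12 ± 0.08, adjusted p = 2.96e-14, edgeR). GENCODE 29 puts FAM131B-AS2 on the same strand as FAM131B, alone among the members. DLGAP1, a scaffold gene of synapses, had 55 counts at 5 µM and 2 in controls (ratio 25.9, 6.83 to 219, counting error only; adjusted p = 7.05e-08, edgeR). DLGAP1-AS1 had 20.6, 21.2, 21.5 and 20.9 CPM at 5 µM, against 22, 22.8, 23.1 and 23.4 CPM in controls and did not pass the test (log2 fold change -0.12 ± 0.07, adjusted p = 0.148, edgeR), although its 4 and 4 values did not overlap.

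VASH1, which encodes the angiogenesis inhibitor vasohibin, had 5.08, 4.64, 5.57 and 5.87 CPM at 5 µM, against 0.703, 1.1, 0.985 and 1.1 CPM in controls (log2 fold change 2.45 ± 0.20, adjusted p = 6.6e-13, edgeR), while VASH1-AS1 had 3.03, 2.66, 2.42 and 2.31 CPM at 5 µM, against 3.2, 3.81, 4.12 and 3.72 CPM in controls (log2 fold change -0.52 ± 0.17, adjusted p = 0.00515, edgeR). The pair moved apart. Of the exon bases of VASH1-AS1, 56.6% lie over opposite-strand exons of any gene, and the part of shared reads was not tested. KCNJ5, a potassium channel gene, had 1.43, 1.72, 1.32 and 2.0 CPM at 5 µM, against 0.0781, 0.147, 0.0895 and 0.169 CPM in controls (log2 fold change 3.65 ± 0.43, adjusted p = 2.07e-09, edgeR), and KCNJ5-AS1 had 16.5, 17.9, 16.7 and 16.2 CPM at 5 µM, against 10.9, 13.9, 14.2 and 13.5 CPM in controls (log2 fold change 0.36 ± 0.09, adjusted p = 0.000629, edgeR). These 4 pairs and those of YWHAH, HIF1A, BHLHE40 and B4GALT1 were chosen for the distance between member and sense gene, so the distance itself is a description.

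For 29 named pairs with both genes tested, the log2 ratio of antisense to sense CPM is given for 5 µM and control as a description, with no test, since most pairs were named for the size of their changes. In each the 4 and 4 ratios stood apart. Values of single genes stood apart for 70.8% of all genes tested, and the share over all 254 pairs is not given here. The difference ran from 5.89 for HIF1A-AS1 to -5.0 for FAM131B-AS2 on the log2 scale. The order at the top depends on the prior count: with 0.5 in place of 2, the difference was 7.53 for YWHAH-AS1 and 6.3 for HIF1A-AS1, against 5.82 for YWHAH-AS1 with 2. Between them lay pairs in which neither gene moved far, such as SLC16A1-AS1 with -0.55.

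A list of much studied members was described whatever their values. ZEB1-AS1, named for the repressor of epithelial genes ZEB1, had 8.59 ± 0.667 CPM at 5 µM and 7.42 ± 1.15 CPM in controls and did not pass the test (log2 fold change 0.20 ± 0.12, adjusted p = 0.147, edgeR). ZEB1 had 19 ± 2.44 CPM at 5 µM and 25.6 ± 3.9 CPM in controls (log2 fold change -0.42 ± 0.10, adjusted p = 0.000287, edgeR). CDKN2B-AS1, also called ANRIL, had 1.87, 3.01, 1.69 and 2.0 CPM at 5 µM, against 1.87, 1.61, 1.7 and 1.52 CPM in controls, with overlapping values (log2 fold change 0.33 ± 0.22, adjusted p = 0.173, edgeR), while CDKN2B, the cell cycle inhibitor p15, had 25.9 ± 1.95 CPM at 5 µM and 51.4 ± 5.31 CPM in controls (log2 fold change -0.99 ± 0.07, adjusted p = 6.29e-14, edgeR). FOXD2-AS1 was lowest at 2.5 µM, with 5.86 ± 0.845 CPM in controls, 3.22 ± 0.511 CPM at 2.5 µM and 5.07 ± 0.393 CPM at 5 µM (SD, n = 4 each). Its decrease at 2.5 µM passed the test (log2 fold change -0.85 ± 0.15, adjusted p = 8.33e-06, edgeR) and that at 5 µM did not (adjusted p = 0.183). FOXD2, a forkhead factor, was higher at 5 µM (log2 fold change 1.21 ± 0.29, adjusted p = 0.000374, edgeR).

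SLC16A1-AS1 had 6.55 ± 0.844 CPM at 5 µM and 9.58 ± 0.745 CPM in controls (log2 fold change -0.56 ± 0.12, adjusted p = 7.88e-05, edgeR), while the lactate carrier SLC16A1 had 150.2 ± 8.65 CPM at 5 µM and 149.6 ± 8.07 CPM in controls (adjusted p = 0.906, edgeR). MCM3AP-AS1 was lower, with 5.11 ± 0.585 CPM at 5 µM and 9.91 ± 0.798 CPM in controls (log2 fold change -0.95 ± 0.12, adjusted p = 5.83e-09, edgeR), and so was MCM3AP, a gene of mRNA export, with 142 ± 3.84 CPM at 5 µM and 178 ± 10.9 CPM in controls (log2 fold change -0.32 ± 0.05, adjusted p = 4.71e-07, edgeR). Of the other genes on this list, HIF1A-AS3 had 1 count, DSCAM-AS1 29, GATA3-AS1 23, HOXA-AS2 176, HOXA-AS3 58, HOXB-AS1 112 and HOXB-AS3 69 over all libraries, all below the minimum. HIF1A-AS2 and AFAP1-AS1 were not matched by symbol.

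At 2.5 µM against control, 134 members were higher, 51 lower and 110 did not pass the test. This is 62.7% called, against 59.1% of all genes tested, of which 30.7% were higher and 28.5% lower. At least 2-fold higher and called were 66 of the 295 members, against 6.35% of all genes tested, and at least 2-fold lower 6, against 3.74%. The median log2 fold change was 0.32 over the members and 0.02 over all genes. The rule on summed counts bears on these values too. Among the 187 members with at least 100 control counts, 69 were higher and 49 lower, with a median of 0.12. In 156 members the 4 and 4 values did not overlap, against 50.5% of all genes tested. The 3 largest increases were those of CALML3-AS1, YWHAH-AS1 and DYNLRB2-AS1 described above, and the 3 largest decreases those of USP3-AS1, PTPRG-AS1 and ELFN1-AS1. USP3-AS1 had 0.454, 0.352, 0.925 and 1.01 CPM at 2.5 µM, against 2.89, 2.86, 2.77 and 2.37 CPM in controls (log2 fold change -1.97 ± 0.29, adjusted p = 4.16e-07, edgeR). PTPRG-AS1 had 0.833, 0.703, 0.616 and 0.605 CPM at 2.5 µM, against 2.5, 2.57, 1.88 and 2.45 CPM in controls (log2 fold change -1.77 ± 0.24, adjusted p = 1.21e-07, edgeR), and PTPRG, a receptor phosphatase, had 6 counts at 2.5 µM and none in controls. Both members lay below every control in all 4 libraries.

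At 5 µM against 2.5 µM, 186 members were higher, 29 lower and 80 did not pass the test, or 72.9% called, against 68.4% of all genes tested (33.6% higher, 34.8% lower). At least 2-fold higher and called were 94 of the 295 members, against 10.1% of all genes tested, and at least 2-fold lower 7, against 3%. The values did not overlap for 195 members, against 62.1% of all genes tested. The median was 0.56 over the members and -0.01 over all genes. Among the 187 members with at least 100 control counts, 98 were higher and 27 lower, with a median of 0.32. The largest increases were those of SPAG5-AS1, STARD4-AS1 and YWHAH-AS1. SPAG5-AS1 had 0.0781, 0.293, 0.448 and 0.423 CPM in controls, 0.454, 0.492, 0.385 and 0.403 CPM at 2.5 µM and 5.44, 4.72, 6.3 and 5.31 CPM at 5 µM, so that its step lay between the doses (log2 fold change 3.62 ± 0.23, adjusted p = 3.02e-15, edgeR); at 2.5 µM against control it did not pass (adjusted p = 0.344). SPAG5, a protein of the mitotic spindle, had 100.4 ± 2.24 CPM in controls, 121 ± 2.79 CPM at 2.5 µM and 150 ± 11.8 CPM at 5 µM (SD, n = 4 each).

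STARD4-AS1 had 0.0781, 0.366, 0.0895 and 0.254 CPM in controls, 0.227, 0.844, 0.231 and 0.134 CPM at 2.5 µM and 3.03, 3.44, 3.08 and 3.37 CPM at 5 µM (log2 fold change 3.13 ± 0.31, adjusted p = 9.79e-11 at 5 against 2.5 µM, edgeR). Of the libraries at 2.5 µM, 1 lay above the other three, and the 5 µM values lay above all of them; without that library, replicate 2, the log2 fold change was 3.98. STARD4, a carrier of cholesterol, had 37.9 ± 4.61 CPM in controls, 29.7 ± 5.37 CPM at 2.5 µM and 32.9 ± 2.62 CPM at 5 µM, with overlapping values. The largest decreases were those of ELFN1-AS1, DNAH17-AS1 and CCDC54-AS1. CCDC54-AS1 had 0.356, 0.687, 1.03 and 0.625 CPM at 5 µM, against 2.8, 1.69, 2.23 and 1.68 CPM at 2.5 µM (log2 fold change -1.59 ± 0.27, adjusted p = 4.17e-06, edgeR), and CCDC54 had no count in any library.

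Over the 3 groups the mean CPM ran upward from control through 2.5 µM to 5 µM in 169 of the 295 members (57.3%) and downward in 37 (12.5%). It was lowest at 2.5 µM in 63 and highest at 2.5 µM in 26. Of all genes tested, 30.5% ran upward, 29.9% downward, 18.4% were lowest and 21.1% highest at 2.5 µM. These orders are of means and were not tested. The rule on summed counts bears on them, since a gene with few control counts could enter by being higher in a treated group. They were not split by control counts.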

How the data were processed

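RNA was sequenced in 12 libraries, 4 per group. The authors deposited 1 table of raw counts of reads per Ensembl gene, not normalized. Per the submitters' processing notes the build was GRCh37 and the tools included STAR 2.4.1d, featureCounts 1.4.6 and edgeR 3.8.6; the sources used here give neither their roles nor the strand setting. No other samples' columns were in the table. Symbols came from a gene name table (51662 genes, 99.2% of counts), and classes, strands and arrangements from GENCODE 29 (GRCh38), so no coordinates of genes are printed; promoter windows are RefSeq's own.

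From the counts, 63152 genes (32171 with no count), filterByExpr kept 16839. R 4.3.3 with edgeR 4.0.16 tested the differences (TMM, robust glmQLFit, glmQLFTest), with 12 libraries in 1 fit of 3 groups and 9 residual degrees of freedom, and Benjamini-Hochberg adjustment over the genes tested with a threshold of 0.05. The steps were tested on simulated data. CPM uses TMM-scaled library sizes and is given as single values or mean ± SD; the error (SE) of a log2 fold change is its size divided by the square root of F. Ratios of few counts use these library sizes with exact 95% intervals for counting error only. Log2 ratios of antisense to sense CPM use a prior count of 2. The sense gene is the symbol without its suffix. No 2 replicate libraries agreed within counting noise (their chi-square was 1.72 to 5.78 per degree of freedom).

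Members named are, for 5 µM against control, the 6 largest increases and the 6 largest decreases, in the remaining comparisons 3 each way (adjusted p under 0.05, no overlap), the 5 of highest mean CPM, the 4 and 4 pairs farthest apart and a list of 20 genes. Members and lists were chosen with earlier results of these data known. Alternatives were DESeq2 1.42.0, other scalings, no filter, a replicate block, each library left out and other member rules.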

Additional observations from a re-analysis of the deposited data

Results flagged for a closer look

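Of 189 groups of 4 libraries checked among the named members and their sense genes, 8 held a library far from the other three (by the gap to the nearest, as a share of the range). For independent values with a normal spread, chance flags about 1 group in 20. These groups share libraries and some hold single counts, so that rate may not apply, and chance was not tested. At 2.5 µM STARD4-AS1 had 0.844 CPM in 1 library, against 0.134 to 0.231 CPM in the others. Among controls, HM13-AS1 had 0.254 CPM in 1 library, against 0.0733 to 0.0895 CPM in the others, and PTPRG-AS1 had 1.88 CPM, against 2.45 to 2.57 CPM. In controls CALML3-AS1 (0.0846 CPM) and YWHAH-AS1 (0.0895 CPM) had their single count in 1 library and none in the others. Sense genes with such a control library were NNT (419.7 CPM, others 453 to 459.7), TMPO (284 CPM, others 309 to 312) and USP3 (68.5 CPM, others 66.5 to 66.6).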

How the results depend on the processing

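With RLE scaling, library size alone, DESeq2, no low count filter, a count minimum of 100 or GENCODE 29 symbols, each count of called genes and members stayed within 1.5 times the value given. A count minimum of 400 left 195 members. Of these, 129 were higher at 5 µM against control, and 143 were called, 120 of them higher, at 5 against 2.5 µM. With at least 100 control counts instead (chosen after seeing the data), 187 of the 295 members remained. At 5 µM against control 145 of them (77.5%) were called and 102 higher. These counts were 118 (63.1%) and 69 at 2.5 µM, and 125 (66.8%) and 98 at 5 against 2.5 µM. A further rule (also chosen after seeing the data) kept the 50 members with no exon base over opposite-strand exons. At 5 µM 38 (76%) of them were called, 32 higher and 6 lower. At 2.5 µM 31 (62%) were called, 24 higher and 7 lower, and at 5 against 2.5 µM 34 (68%), 28 higher and 6 lower. Of all genes tested 78.2%, 59.1% and 68.4% were called, in the same order, so the shares called were near the background. These rules leave fewer members. Leaving out each library in turn gave 191 to 198 members higher and 40 to 44 lower at 5 µM. Library size alone moved the median of all genes at 5 µM against control to 0.12 from -0.01, and there DLGAP1-AS1 (0.018), YWHAH (0.087), RBM15 (0.036) and USP3 (0.062) had a positive log2 fold change; none passed the test under it, and the cause was not tested. SLC16A1 gave -0.00417 with no filter. Leaving out single libraries turned the sign for SLC16A1 at 5 µM (range -0.053 to 0.030), CDKN2B-AS1 at 5 against 2.5 µM (-0.025 to 0.31) and STARD4-AS1 at 2.5 µM (-0.051 to 1.31), none of which passed the test. Of single-gene values, 7 lost their call under at least 1 alternative and 7 gained one, among them ZEB1-AS1 at 5 µM on library size alone (adjusted p = 0.0187, edgeR). Replicate numbers are shared between groups but same-numbered libraries did not deviate together (r -0.13 to 0.07), and with the replicate block 198 members were higher and 43 lower at 5 µM. Members with few counts in controls are limited by depth.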

Other observations

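Some further pairs, chosen after their values were seen, involve genes of epithelial and mesenchymal identity or of lineage. VIM-AS1 had 14, 13, 12.4 and 14 CPM at 5 µM, against 2.73, 3.37, 2.6 and 2.62 CPM in controls (log2 fold change 2.22 ± 0.14, adjusted p = 4.62e-16, edgeR). VIM, the mesenchymal intermediate filament vimentin, had 1249, 1312, 1288 and 1277 CPM at 5 µM, against 1852, 1758, 2041 and 1918 CPM in controls (log2 fold change -0.56 ± 0.04, adjusted p = 1.64e-13, edgeR). SPINT1-AS1 rose together with SPINT1, an inhibitor of proteases at epithelial surfaces. The member had 4.46, 5.75, 5.06 and 5.62 CPM at 5 µM, against 0.469, 0.66, 0.537 and 0.338 CPM in controls (log2 fold change 3.35 ± 0.22, adjusted p = 2.05e-15, edgeR), and the sense gene had 122, 114, 124 and 123 CPM at 5 µM, against 15.3, 15.3, 17.3 and 12.9 CPM in controls (log2 fold change 2.99 ± 0.07, adjusted p = 4.36e-28, edgeR). In these pairs the groups did not overlap for either gene. The epithelial junction gene DSP went the other way from SPINT1 (log2 fold change -0.35 ± 0.04, adjusted p = 1.15e-08 at 5 µM, edgeR). DSP-AS1 was higher (log2 fold change 2.41, adjusted p = 3.93e-18, edgeR). The direction of epithelial or mesenchymal genes as a set was not tested.

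ID2-AS1 and ID2, an inhibitor of basic helix-loop-helix factors, also rose together. ID2-AS1 had 5.17, 5.15, 4.69 and 4.62 CPM at 5 µM, against 0.234, 0.22, 0.448 and 0.0846 CPM in controls (log2 fold change 4.28 ± 0.31, adjusted p = 1.41e-14, edgeR), and ID2 had 87.9, 76.5, 97.7 and 99 CPM at 5 µM, against 6.41, 7.18, 6.89 and 6.94 CPM in controls (log2 fold change 3.72 ± 0.10, adjusted p = 1.4e-25, edgeR). GATA6-AS1 had 0.262 ± 0.0754 CPM in controls, 1.3 ± 0.285 CPM at 2.5 µM and 5.87 ± 0.196 CPM at 5 µM, and GATA6, an endoderm factor, had 9.6 ± 1.03 CPM in controls, 16.2 ± 0.816 CPM at 2.5 µM and 23.2 ± 1.57 CPM at 5 µM (SD, n = 4 each). Their log2 fold changes at 5 µM against control were 4.43 ± 0.25 and 1.28 ± 0.09. TFAP2A-AS1 had 4.08 ± 0.589 CPM in controls, 13.5 ± 2.2 CPM at 2.5 µM and 35.8 ± 2.34 CPM at 5 µM (log2 fold change 3.13 ± 0.12, adjusted p = 2.34e-22 at 5 µM, edgeR), while TFAP2A, an AP-2 transcription factor, changed by 0.40 ± 0.05. In each of these pairs both genes were higher at 5 µM in every library than in any control.

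Where a sense gene had 2 members, they did not always move alike. DLGAP1-AS2 had 32.5, 36.7, 33 and 31 CPM at 5 µM, against 8.05, 6.96, 6.62 and 5.58 CPM in controls (log2 fold change 2.28 ± 0.10, adjusted p = 1.27e-20, edgeR), while DLGAP1-AS1 changed by -0.12 ± 0.07. BCAN-AS1 had 49.9 ± 3.94 CPM at 5 µM and 25 ± 1.55 CPM in controls (log2 fold change 0.99 ± 0.08, adjusted p = 6.87e-14, edgeR), and BCAN-AS2 had 14.8 ± 1.21 CPM at 5 µM and 20.2 ± 1.22 CPM in controls (log2 fold change -0.45 ± 0.09, adjusted p = 3.82e-05, edgeR), so that the members named for BCAN moved apart. TMEM44-AS1 and TMEM44-AS2 were both higher, with log2 fold changes of 2.71 ± 0.13 and 2.75 ± 0.30, where TMEM44 was lower (log2 fold change -1.12 ± 0.13, adjusted p = 2.41e-09, edgeR). THAP9-AS1 had 12.1, 13.5, 13.1 and 13.4 CPM at 5 µM, against 41.9, 42, 28.9 and 35.9 CPM in controls (log2 fold change -1.52 ± 0.10, adjusted p = 6.19e-15, edgeR), while THAP9, which derives from a transposase, was higher (log2 fold change 1.08 ± 0.18, adjusted p = 1.51e-06, edgeR). HOXC-AS3 had 1.87, 1.98, 1.52 and 2.2 CPM in controls, 4.84, 4.22, 4.01 and 5.04 CPM at 2.5 µM and 7.22, 9.19, 7.47 and 8.31 CPM at 5 µM, and its 3 groups stood apart in order of dose (log2 fold change 2.08 ± 0.15, adjusted p = 4.07e-14 at 5 µM, edgeR).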
